A study of Homo sapiens with 8 samples.

Results

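Human reference sequence that could not be given a place on an assembled chromosome is kept as separate short pieces, and much of it comes from satellite arrays. The sequences described here are the ones of this kind that held CENP-B ChIP-seq coverage in U2OS cells: all sequences outside chromosomes 1 to 22, X and Y with a base above 0 in either group. They were cut into windows of 500 bases from their first base, and every window with a covered base was taken, which gave 717 of the 71035 covered windows of the series. The windows lie on 21 sequences. Of these, 2 are random sequences, which are assigned to chromosome 2 without a position, 18 are unplaced, which are assigned to no chromosome, and 1 is a fix patch of chromosome 3.

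U2OS is an established osteosarcoma cell line, and the cells were grown in DMEM with FBS. Control cells, labelled WT, were compared with ERCC6L2-/- cells, which carry a CRISPR/Cas9 knockout of ERCC6L2 and were derived from single cells, so that a group can be 1 clone; which clone was used is not in the labels. Each group had 3 immunoprecipitates with an antibody against CENP-B, made from cross-linked chromatin digested with micrococcal nuclease, and 1 input without antibody. The deposited coverage holds 1 whole number of reads per base for each group, drawn from its 3 immunoprecipitates together and given only inside the peaks kept for that group. The values therefore have no replicate error and the library depth is unknown. No difference below could be tested, and each is given as a description of the 2 pooled groups. A base without a value lay outside the retained peaks of that group, which is not a measurement of 0 reads.

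CENP-B is a centromere protein that binds a short DNA motif, the CENP-B box, found in many monomers of α-satellite. α-satellite is built of tandem monomers, and blocks of several monomers can repeat as a unit, called a higher-order repeat. ERCC6L2 is a member of the SNF2 family of ATPases. Because copies of a satellite are so alike, a short read can often be placed on several of them, and the reference holds only some of the copies in a genome.

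The bases with the highest coverage are shown for the 3 sequences with the highest control means, in stretches about as long as 1 monomer, centred on the highest control base. These are the stretches on which the values below turn, and capitals mark a CENP-B box, read here on the opposite strand. All are on the plus strand of GRCh38, at KI270310v1:811-981, KI270411v1:1271-1441 and KI270422v1:607-777.
KI270310v1: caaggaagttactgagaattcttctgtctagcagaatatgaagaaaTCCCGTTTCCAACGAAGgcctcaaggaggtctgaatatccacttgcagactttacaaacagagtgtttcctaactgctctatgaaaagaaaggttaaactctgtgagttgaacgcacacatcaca
KI270411v1: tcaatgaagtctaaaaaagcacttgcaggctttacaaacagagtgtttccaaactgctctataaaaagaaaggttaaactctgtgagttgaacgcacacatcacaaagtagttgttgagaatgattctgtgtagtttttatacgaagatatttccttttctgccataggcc
KI270422v1: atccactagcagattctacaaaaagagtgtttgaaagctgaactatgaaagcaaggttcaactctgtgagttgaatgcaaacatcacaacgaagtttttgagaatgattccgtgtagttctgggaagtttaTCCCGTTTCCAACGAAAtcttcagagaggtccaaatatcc
The KI270411v1 stretch holds no box, since its nearest box has its middle 97 bases from the highest base.

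Only 2 sequences had coverage in ERCC6L2-/- cells alone, and the stretch around their highest base is shown in the same way, at GL000216v2:4750-4920 and KI270438v1:110421-110591 on the plus strand of GRCh38. Capitals mark GGAAT or, on the other strand, ATTCC, the pentamer of another kind of satellite, with 16 copies in the stretch of GL000216v2 and 11 in that of KI270438v1.
GL000216v2: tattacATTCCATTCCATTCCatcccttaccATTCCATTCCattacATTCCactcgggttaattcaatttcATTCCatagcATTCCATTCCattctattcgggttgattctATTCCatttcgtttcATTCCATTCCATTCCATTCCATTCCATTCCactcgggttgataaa
KI270438v1: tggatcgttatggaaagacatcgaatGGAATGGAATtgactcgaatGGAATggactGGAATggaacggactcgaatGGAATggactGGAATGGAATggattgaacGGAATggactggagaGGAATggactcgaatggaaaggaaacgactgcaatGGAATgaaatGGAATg

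The label of satellite sequence was checked against the letters of the 20 sequences in the reference, which were of 2 kinds. The CENP-B box was searched on both strands as NTTCGNNNNANNCGGGN, in which the 9 spelled bases were required and N stood for any base. It lay on 17 of the 20 sequences, with 741 boxes in covered bases, all of them on sequences with control coverage. A box was in 86.2% of the 636 member windows with control coverage and in 90.8% of the 70318 covered windows of assembled chromosomes. KI270418v1, with control coverage, held no exact box, and GL000216v2 and KI270438v1 held none among their 69 windows. In these last windows the pentamer was dense, with a median of 47 copies per window and a lowest count of 26, against a median of 3 in the member windows with control coverage and 2 on assembled chromosomes. A single copy of the pentamer was common everywhere and was in 89.5% of the covered windows of assembled chromosomes. The fix patch KN196476v1 is not in the reference used, and its sequence was not analysed here.

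Most of the boxes had 1 form. Oriented in the direction of the motif and with the required bases in capitals, the 3 commonest were the following.
687 copies: tTTCGttggAaaCGGGa
10 copies: cTTCGttggAaaCGGGa
7 copies: cTTCGttggAaaCGGGt
The first was on 12 sequences and accounted for 624 boxes of the 2 random sequences. The other forms shown began with c and lay only on unplaced sequences: the one with 10 copies on 6 of them and the one with 7 copies on 4. There were 24 distinct boxes, of which 12 were seen once. The random sequences and GL000226v1 had their boxes on the plus strand, 691 in all, and the other sequences had theirs on the minus strand, 50 in all.

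Repeat structure also differed among the sequences. For each sequence, the span from its first to last covered base was compared with itself at every shift up to 4000 bases. Shorter spans had a lower limit. Given here is the smallest shift whose identity was within 2 percentage points of the best. On KI270716v1 it was 680 bases, where 79.1% of bases were identical, and on KI270715v1 also 680 bases, with 76.3% identical. On GL000226v1 it was 1364 bases, with 98.9% identical. These shifts are close to whole numbers of α-satellite monomers. On GL000216v2 the shift was 5 bases, the length of its pentamer, with 70.9% identical, and on KI270438v1 15 bases with 69.4%.

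Coverage was uneven across the 21 sequences, and a small number of bases held most of it. Control coverage extended over 316834 bases at 627 reads per base on average, and ERCC6L2-/- coverage over 164262 bases at 405. The 2 random sequences held 536 windows, 74.8% of all. The 16 unplaced sequences with control coverage held only 13.9% of the covered bases in control but 77.1% of the reads summed over them. The log2 ratio of summed coverage, ERCC6L2-/- over control, was -1.58, and -0.46 with each group scaled to its total over the series. The sequences as a whole held 4.49% of all summed coverage of the series in control cells and 3.26% in ERCC6L2-/- cells. Their mean control coverage lay 2.40 log2 units above that of the centromeric bins, the 100 kb bins of assembled chromosomes with at least 10 CENP-B boxes, which averaged 118 reads. For the random sequences alone this difference was 0.19 log2 units, so it came from the unplaced sequences and the fix patch.

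**Figure D1:**
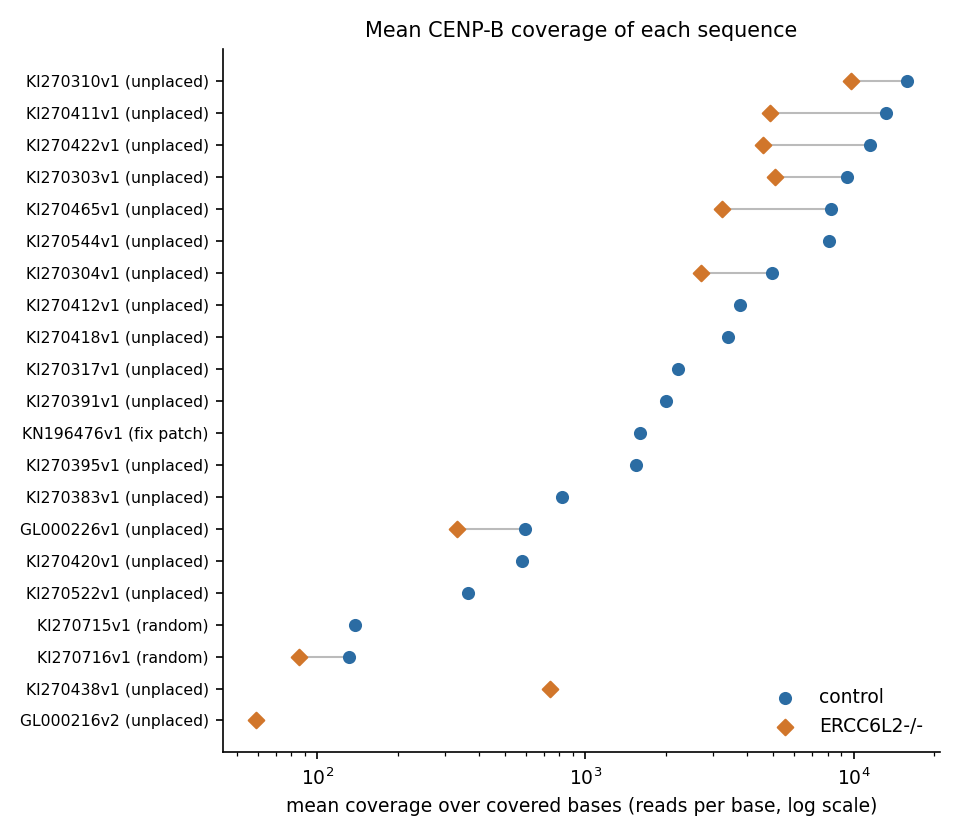
Mean coverage over the covered bases of each of the 21 sequences, in reads per base on a log axis, with circles for control and diamonds for ERCC6L2-/- cells, 1 pooled value per group; a grey line joins the groups where both had coverage. Control means ran from 131 reads on KI270716v1 to 15854 on KI270310v1, and in each of the 8 sequences with both values the ERCC6L2-/- value was the lower.

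Among the unplaced sequences, KI270310v1 had the highest mean, with 15854 reads in control and 9788 in ERCC6L2-/- cells over a sequence of 1201 bases. KI270411v1 had 13195 reads in control and 4880 in ERCC6L2-/- cells. KI270422v1 had 11516 and 4615 reads. On each of these 3 sequences the control value was the higher, and none was covered in 1 group alone. KI270303v1 followed with 9449 reads in control and 5114 in ERCC6L2-/- cells, and KI270465v1 with 8275 and 3229. KI270304v1 had 4952 and 2690 reads. The longest unplaced sequence with coverage in both groups, GL000226v1 of 15008 bases, had lower means of 597 and 331 reads. In all, 13 of the 19 sequences with control coverage had a control mean above 1000 reads, and KI270716v1, with 131 and 85.6 reads, was the lowest of the sequences covered in both groups.

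The coverage of these short sequences was concentrated in a few positions. On KI270310v1 the highest base in control reached 81123 reads, 10.2 times the control median of the sequence. The highest base in ERCC6L2-/- cells, 11 bases away, reached 49376 reads. The highest control base lay 31 bases from the middle of the box in the stretch shown above. The other box of this sequence had 9071 reads in control at its middle, against 69355 at the first. The same box form at KI270303v1 had 50988 reads in control and 29061 in ERCC6L2-/- cells at its middle, while a box of that sequence with the form seen 7 times had 4835 and 2115. Boxes of 1 sequence therefore differed several-fold in coverage. The 2 forms did not keep this order on KI270304v1. There the form seen 7 times had 5837 and 9063 reads in control, and the form seen 10 times had 5891 and 3201. KI270411v1 showed several peaks, the highest at 50396 reads, and the last of its 4 boxes had 2636 reads at its middle.

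**Figure D2:**
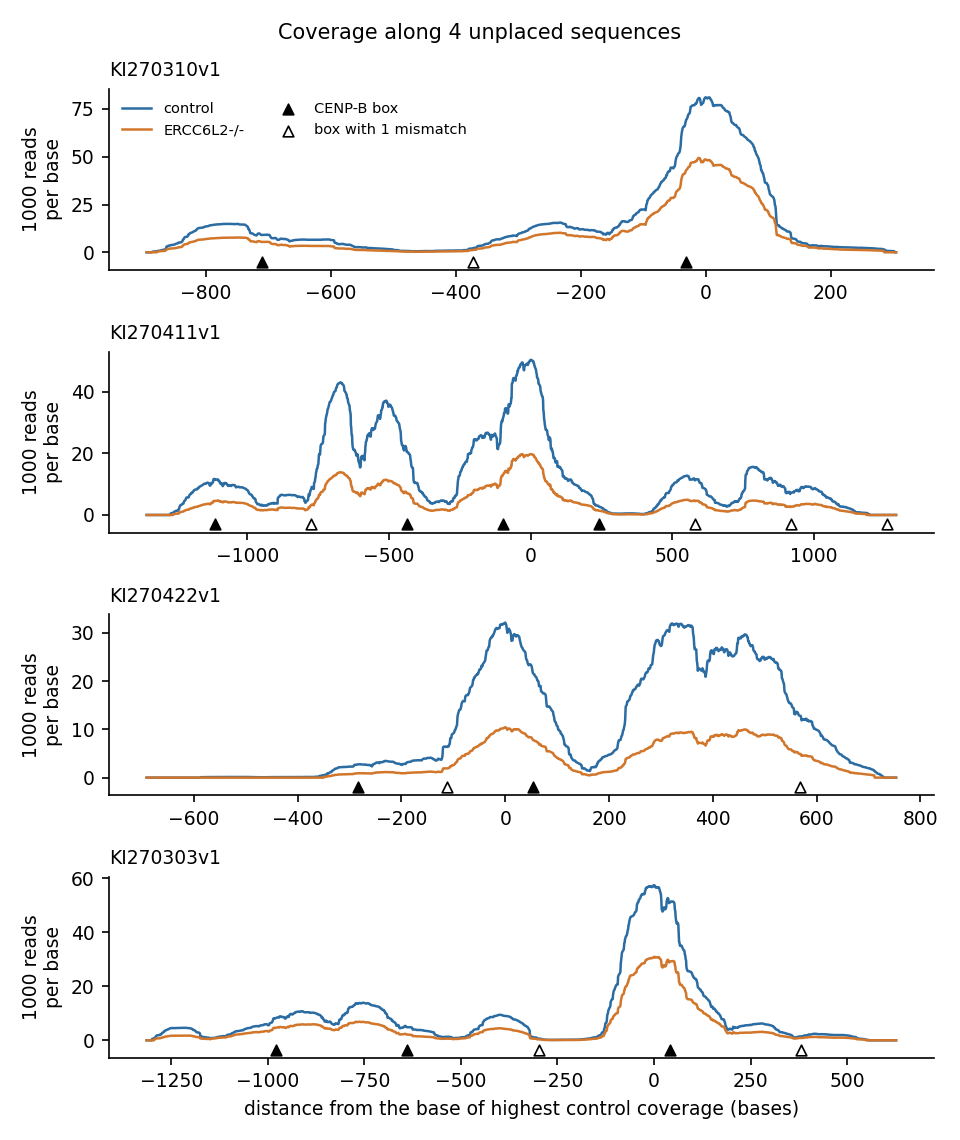
Coverage per base, in units of 1000 reads, along the unplaced sequences KI270310v1, KI270411v1, KI270422v1 and KI270303v1, against the distance in bases from the base of highest control coverage, for control and ERCC6L2-/- cells; filled triangles mark CENP-B boxes and open triangles motifs with 1 mismatch. The 2 curves have the same peaks at different heights, and the highest control bases were 81123, 50396, 32107 and 57376 reads.

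The shape of the coverage was shared between the groups. Over the bases of each of the 8 sequences covered in both, the rank correlation of the 2 coverages was 0.971 to 0.994; bases of 1 sequence share reads, so these are descriptions only. In 5 of the 8 sequences the highest base of the 2 groups lay within 10 bases. On KI270303v1, KI270422v1 and KI270465v1 it was the same base.

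ERCC6L2-/- coverage was lower on all 8 sequences covered in both groups, by unequal amounts. Over bases covered in both groups, the log2 ratio of mean coverage was -1.07 for all sequences together. By sequence it was lowest on KI270422v1 at -1.63, with means of 14241 reads in control and 4615 in ERCC6L2-/- cells over these bases. It was -1.45 on KI270411v1 and -1.36 on KI270465v1. It was -0.92, -0.90 and -0.86 on KI270304v1, KI270303v1 and GL000226v1, and -0.73 on KI270310v1. The highest ratio, -0.62, was on KI270716v1. These values are on the scale of the deposited files, in which the control group had 2.17 times the summed coverage of the ERCC6L2-/- group over the whole series. With each group scaled to its own total, the ratio for all sequences turned to 0.047, with 5 sequences higher and 3 lower in ERCC6L2-/- cells; KI270422v1, KI270411v1 and KI270465v1 stayed lower, at -0.51, -0.33 and -0.24. With the groups scaled instead by the coverage that both had outside centromeric bins, the ratio was -0.50 and all 8 were lower. That coverage lay on only 9933 bases, 4315 on chromosome 1 and 5618 on chromosome 17. On chromosome 1 it summed to 8904317 in control and 9452068 in ERCC6L2-/- cells. On chromosome 17 the sums were 89567375 and 56852186, so this scale rests mainly on a few bases of chromosome 17. Scaling shifts all sequences alike and leaves their order. The input libraries were not analysed here.

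By window, 424 of the 717 member windows, 59.1%, had a ratio of (mean coverage + 1) under 0.5 in ERCC6L2-/- cells over control, beside 46.7% of all windows of the series. A ratio over 2 was found in 69 windows, 9.62%, beside 0.421% of all windows. These counts were set mainly by which group had a value at all: 380 member windows (53.0%) were covered in control only, 69 (9.62%) in ERCC6L2-/- cells only and 268 (37.4%) in both. Over the whole series these shares were 40.5%, 0.421% and 59.1%. KI270715v1 alone gave 323 of the 424 member windows under 0.5 and 323 of the 380 covered in control only. The excess of the members over the series in these 2 shares rests on this 1 sequence. Among the windows covered in both, 44 or 16.4% were under 0.5, beside 10.5% of such windows in the series, and 267 of 268, 99.6%, were lower in ERCC6L2-/- cells, beside 96.6% of such windows in the series. Their median ratio was 0.620, beside 0.637 for the series, with a range of 0.305 to 2.74. The only window covered in both that was higher in ERCC6L2-/- cells was the last of KI270716v1, where the control peak took in 58 bases and the ERCC6L2-/- peak 193. All 3 windows of KI270422v1, all 6 of KI270411v1 and all 4 of KI270465v1 were under 0.5, against none of the 3 of KI270310v1 and 23 of 213 of KI270716v1. These counts are on the scale of the deposited files. With each group scaled to its total over the series, 380 windows were under 0.5, the number covered in control only. No window covered in both was then under 0.5.

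Covered length differed between whole sequences far more than within them. Over all sequences the log2 ratio of covered length was -0.95, but over the 8 sequences covered in both it was -0.01. KI270715v1, with 161339 covered bases, held most of the bases concerned: it was covered over 99.9% of its length in control, at 138 reads per base, and had no covered base in ERCC6L2-/- cells. The other random sequence of chromosome 2, KI270716v1, had 105575 covered bases in control against 105558 in ERCC6L2-/- cells, and 76.0% of the 50-base words of KI270715v1 also occur on it. Of its words, 94.0% also occur on chromosome 2, and at the copies on assembled chromosomes they had 127 reads in control and 76.8 in ERCC6L2-/- cells. Copies of the sequence of KI270715v1 elsewhere thus had coverage in both groups.

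The fix patch and 9 unplaced sequences were also covered in control only. KN196476v1 had 1597 reads on average over 5931 bases, from 300045 to 305975 of the patch. The centromeric bins of chromosome 3, the chromosome the patch belongs to, averaged 1836 reads in control, over 17707 bases, and 778 reads in ERCC6L2-/- cells, over 8821 bases. Chromosome 3 itself therefore had coverage in both groups, while its patch did not. KI270544v1 had the highest mean of the unplaced sequences covered in control only, 8133 reads, with a highest base of 33347. KI270412v1 had 3770 reads, KI270418v1 3399 and KI270317v1 2211. The mean of KI270544v1 lies above the control means of KI270304v1, GL000226v1 and KI270716v1, which were covered in both groups. KI270391v1 had 2005 reads, KI270395v1 1541 and KI270383v1 815, and all 3 shared most of their words with chromosome 9. KI270420v1 had 582 reads and KI270522v1 365. KI270317v1, of 37690 bases, was covered at both ends, up to base 1605 and from base 36081, and 34066 of its bases are unknown.

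To see where else the same sequence occurs, each sequence was split into overlapping words of 50 bases, which were matched to the whole reference. KI270303v1, KI270304v1 and KI270310v1 shared 76.1% to 82.2% of their words with each of chromosomes 1, 5 and 19. KI270317v1 shared 70.1% with chromosome 5 and 66.6% with each of chromosomes 1 and 19. GL000226v1 and KI270465v1 shared theirs with chromosomes 13, 14, 21 and 22, at 96.8% and 66.6%. KI270411v1 and KI270412v1 shared 88.1% and 78.3% with chromosome 10. KI270418v1, KI270420v1 and KI270422v1 shared 92.1%, 76.3% and 77.7% with chromosome 11. Human centromeres are known to share α-satellite families between chromosomes, and a match here says only that the letters recur. KI270544v1 shared 87.1% with chromosome 18 and 57.0% with chromosome 20, and KI270522v1 39.8% with chromosome 15. GL000216v2 and KI270438v1 shared 2.99% and 0.553% of their words with any assembled chromosome.

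At the same words, the unplaced sequences had far higher control coverage than the assembled copies. The 16 unplaced sequences with control coverage had 7.79 to 549 times the coverage of those copies, with a median of 57.6 times, and 7 of them had over 100 times. On KI270465v1 the shared words had 10039 reads on the sequence and 18.3 at the assembled copies. On KI270310v1 they had 18884 and 108 reads. The random sequences differed from this: KI270715v1 had 1.10 times and KI270716v1 0.935 times the coverage of the assembled copies. These averages count bases of the copies outside the retained peaks as 0. Over covered bases only, the control mean was above that of the centromeric bins of the same chromosomes on 15 of the 16 sequences, with a median of 22.3 times and a highest of 158 times. KI270522v1 was the exception, at 0.171 times the bins of chromosome 15, and KI270465v1 was at 125 times. With words of 150 bases, 15 sequences had 5.26 to 3541 times the coverage of the copies, and the copies of KI270522v1 had none. Words of 50 bases that occur on assembled chromosomes had higher coverage than words found once in the reference on all 16 sequences, such as 18884 against 4572 reads on KI270310v1. With words of 150 bases this was so on 11 and the opposite on 5, among them KI270303v1 with 7246 against 10241 reads. How reads that match several copies were placed is not given in the sources used here, and its part in these values was not tested.

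**Figure D3:**
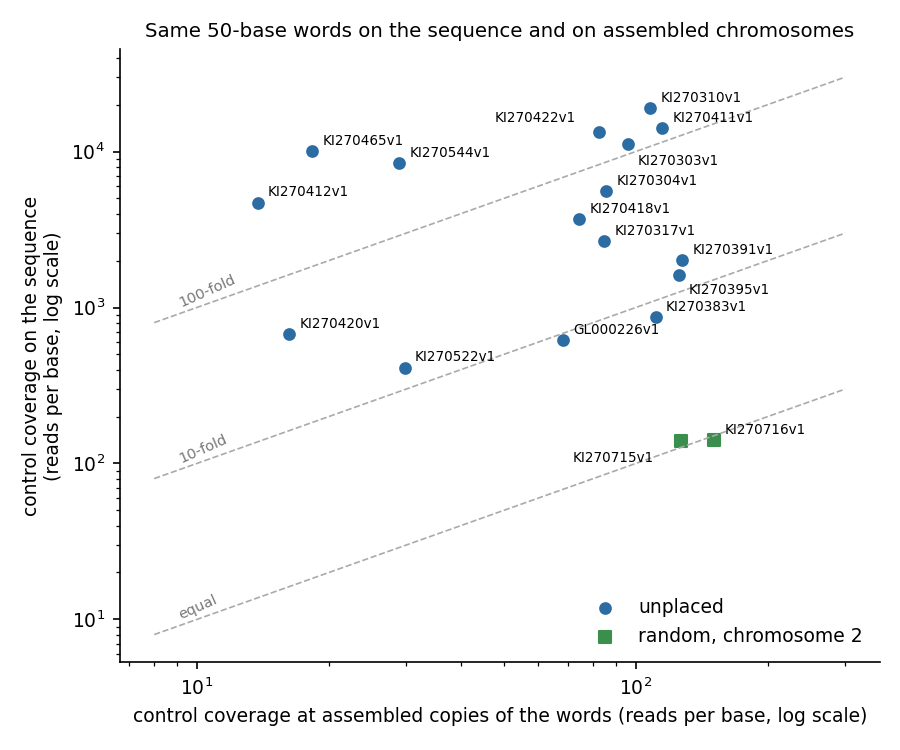
Control coverage of the 50-base words of each sequence that also occur on assembled chromosomes, in reads per base on log axes, on the sequence (vertical) and at the assembled copies (horizontal); dashed lines mark equal, 10-fold and 100-fold coverage. The 16 unplaced sequences lie 7.79 to 549 times above equality, with bases of the copies outside retained peaks counted as 0, and the 2 random sequences of chromosome 2 lie close to it, at 1.10 and 0.935 times.

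The ratio between the groups at these words was like that of the assembled copies for some families and unlike it for others. Bases outside retained peaks again counted as 0, so these ratios also depend on which bases each group kept. For the 3 sequences of the chromosome 1, 5 and 19 family that were covered in both groups, KI270303v1, KI270304v1 and KI270310v1, the ERCC6L2-/- coverage over the control coverage was 0.537, 0.528 and 0.606 on the sequence. At the assembled copies it was 0.520, 0.529 and 0.593. On KI270422v1 the ratio was 0.324 on the sequence and 0.522 at the copies, and on KI270465v1 0.385 and 0.532. GL000226v1 went the other way, with 0.552 on the sequence and 0.0744 at the copies, where ERCC6L2-/- cells averaged 5.08 reads. KI270411v1 also had the higher ratio on the sequence, 0.366 against 0.285. In the centromeric bins of chromosomes 13, 14, 21 and 22, only 33.0% of the bases covered in control were also covered in ERCC6L2-/- cells. Over bases covered in both groups, the log2 ratio was lower on all 8 sequences than in the centromeric bins of their chromosomes. On GL000226v1 it was -0.86 against -0.30 in the bins. On KI270303v1, KI270304v1 and KI270310v1 it was -0.90, -0.92 and -0.73, against -0.50. KI270716v1 was closest to its bins, at -0.62 against -0.58. The words of the control-only unplaced sequences had ERCC6L2-/- coverage at their assembled copies in each of the 9 cases, from 1.78 to 40.1 reads, for words of 50 bases, and in 7 of 9 for words of 150 bases, where KI270412v1 and KI270522v1 had none.

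Coverage did not follow the presence of a box in one direction. Over all 705 member windows in the reference, windows with a box had a mean control coverage 0.31 log2 units above windows without one. This value rests on the windows of GL000216v2 and KI270438v1, which have neither a box nor control coverage; without them it was -0.52, and in windows of 1000 bases it was -0.72. The mean over the windows also rests on which sequence a window belongs to, since the short unplaced sequences have the highest coverage. Within the random sequences alone it was 0.39 on KI270715v1 and 0.45 on KI270716v1. On KI270715v1 the mean control coverage was 108 reads in 39 windows without a box, 138 in 182 windows with 1 box and 148 in 102 windows with 2. On KI270716v1 it was 98.0, 128 and 145 reads in control and 67.9, 83.2 and 93.6 in ERCC6L2-/- cells. The median of KI270716v1 did not follow this order, with 115 reads in control for 1 box and 112 for 2. On GL000226v1 the mean control coverage was 644 reads in 16 windows with 1 box and 544 in 14 windows with 2, and its single window without a box had 89.8. The quartiles of the windows overlapped, with 48.4 to 149 reads for no box and 86.9 to 197 reads for 2 boxes on KI270715v1.

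Around the boxes themselves the profile differed between the random and the unplaced sequences. Coverage was divided by the mean of the sequence and averaged over boxes of a sequence and then over sequences, 340 bases to each side. For the centromeric bins it was instead averaged at once over all boxes covered at their middle, so boxes with high coverage weigh most. On the random sequences the middle of the box was at 0.844 of the mean in control and the highest point, 1.43, lay 103 bases downstream. In ERCC6L2-/- cells, where only KI270716v1 of the 2 had coverage, the highest point was at 102 bases. On the 15 unplaced sequences with boxes the middle of the box was at 1.46 and the highest point, 1.54, lay 40 bases upstream. The control value fell to 1.46 at 39 bases upstream, so the place of this highest point is not firm. In ERCC6L2-/- cells, where 7 of these sequences had coverage, the highest point, 1.52, lay 10 bases upstream. In the centromeric bins the middle was at 0.995 and the highest point, 1.19, at 72 bases downstream. Individual boxes of the unplaced sequences varied widely, and 54 of 94 lay below the mean of their sequence at their middle.

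KI270418v1, without an exact box, showed high coverage at motifs that differ from the box at 1 required base. Substitutions are written with the box's base, its position counted from 1 at the 5′ end of the 17-base motif, and the base found. Among the 153 such motifs on all covered sequences, the commonest change was G5A, in 57 of them, followed by G5C in 17 and G5T in 13. Of the 6 on KI270418v1, 3 held G5C, and 2 of those shared the form below, with the substituted base in capitals.
KI270418v1, minus strand: cttcCttcgaaacgggt
These 2 copies had 17503 and 12556 control reads at their middle, against 186 to 1230 at the other 4. The highest base of the sequence, with 22810 reads, lay 57 bases from the middle of one of them. Over the unplaced sequences such motifs had a median of 0.334 of the mean of their sequence at the middle in 34 motifs, beside 0.851 at the 94 exact boxes. The 2 copies on KI270418v1 were at 5.15 and 3.69 times the mean of the sequence. The same form occurred once on KI270420v1, with 2923 control reads or 5.03 times the mean, and once on KI270422v1, with 6424 reads or 0.558 of the mean.

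KI270716v1 was the one α-satellite sequence with a long uncovered part, and the covered part differed from it in sequence. The 105724 covered bases had 2.47 boxes per kb and 78.7% identity at a shift of 680 bases. The 48075 bases without coverage had 1.10 boxes per kb and 32.3% identity at that shift. So boxes were present in the uncovered part, 53 in all, while identity at the 680-base shift was lower there on average.

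On GL000216v2, 30652 bases from 17 to 31069 of its 176608 bases had coverage in ERCC6L2-/- cells, 59.0 reads per base on average and 1353 at the highest base, and none had coverage in control. The 500-base windows of the covered part had a lowest mean of 0.694, a median of 43.5 and a highest of 365 reads. This part held 979 pentamers per 10 kb, against 302 in the rest of the sequence. Pentamer density alone did not mark the covered part: of 291 uncovered windows with known sequence, 111 held at least 27 pentamers, the lowest count of a covered window, though only 4 reached the covered median of 48. KI270438v1 was covered over 2894 bases near its end, at 738 reads per base on average and 2732 at the highest, and its 6 windows had means from 331 to 1258 reads. Its covered part held 677 pentamers per 10 kb against 464 in the rest. The 62 of 63 windows of GL000216v2 and all 6 of KI270438v1 with a ratio over 2, together with 1 window of KI270716v1, made up the 69 windows of that kind.

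**Figure D4:**
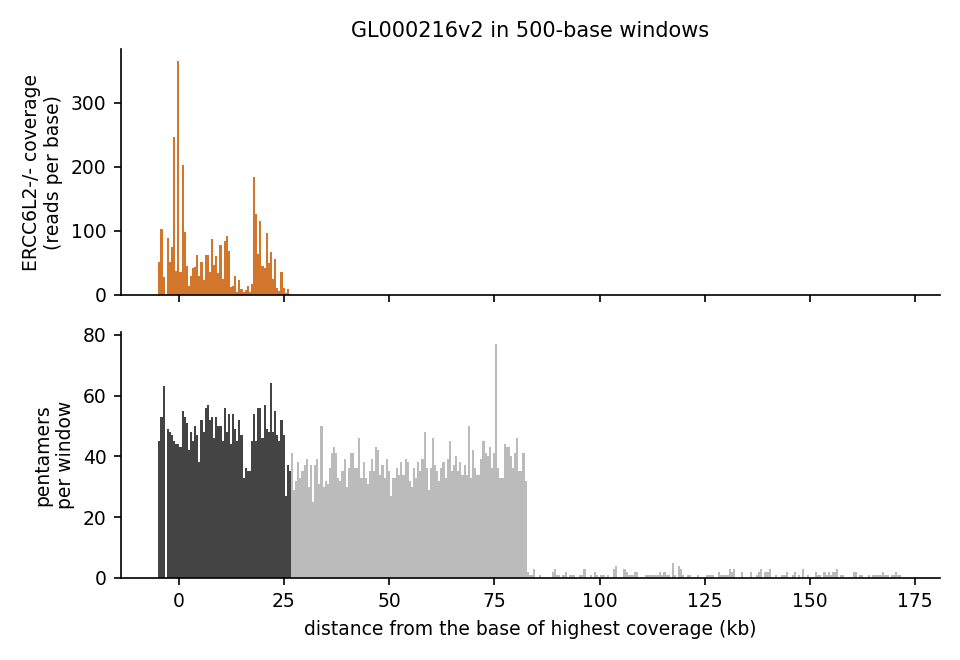
ERCC6L2-/- coverage in reads per base (top) and number of GGAAT or ATTCC pentamers (bottom) in each 500-base window of GL000216v2 with known sequence, against the distance in kb from the base of highest coverage; dark bars are windows with coverage and light bars windows without. The windows with coverage end while pentamers continue at a lower density in 111 windows with at least 27.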

How the data were processed

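The authors checked the ChIP-seq reads with FastQC, trimmed them with Trim Galore, mapped them with Bowtie2 to GRCh38 per the labels, called peaks with MACS2 and after a filter on the FDR merged the peaks from 3 replicates with MSPC, group by group. The deposited files hold, inside the merged peaks, the coverage signal in reads per base as 1 pooled value per group, which the study describes for its tracks as an average over the triplicates; any scaling for depth, the tool versions, the handling of duplicates and the placement of reads that match several copies are not given in the sources used here. The 2 inputs were not analysed here. Coverage was summed in Python 3.11.15 with numpy 2.4.6 and pandas 2.3.3, with sequence read by pysam 0.24.0. Bases without a value counted as 0 in windows and at word copies, and 1 was added to both means before a ratio. The gene annotation used, GENCODE release 44, lists assembled chromosomes only, so genes on these sequences were not analysed. Full values were given for the 5 sequences with the highest control mean, the 5 with most windows, those covered in 1 group only with more than 2 windows, and the lowest and highest ratio; stretches of about 1 monomer were printed for the 3 highest and for those covered in ERCC6L2-/- cells only. The members and these lists were chosen with earlier results of these data known. The window counts were tested on simulated data: of 600 windows all 100 lowered and all 100 raised ones were called and none of the rest, and all 40 planted boxes were found. The simulated windows were covered in both groups, with changes planted well beyond the cut-offs. The simulation thus checks the counting only, and it held no windows covered in 1 group and no difference in depth.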

Additional observations from a re-analysis of the deposited data

How the results depend on the processing

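No paired analysis was possible because each group has 1 pooled column, so neither a replicate block nor leaving out a replicate could give a value. Scaling each group to its total gave log2 ratios of -0.46 for summed coverage and 0.047 for mean coverage over bases covered in both, which reversed the latter. Scaling by the coverage both groups had outside centromeric bins gave -1.01 and -0.50. Requiring 10 reads gave -1.58, -1.07 and, for covered length, -1.07, with 2.27 for the members over the centromeric bins; 50 reads gave -1.60, -1.07, -1.40 and 2.01. A cap at the 99th percentile, 760 reads, gave -1.35 and -0.45, with 0.82 for box over no box and 0.94 over the bins. Without KI270411v1 the values were -1.61, -0.97, -0.96, 0.18 and 2.16. Sequences covered in both gave -1.07 for the sum and -0.0050 for length, with 45 windows under 0.5 and 1 over 2. Random and unplaced sequences only gave -1.51, -0.92 for length and 2.36. Other window lengths change the number of windows, so shares were compared: windows of 200 bases gave 61.8% under 0.5 and 9.64% over 2, with 0.41 for the box, and windows of 1000 bases 58.7% and 9.29%, with -0.72 for the box, a reversal. Allowing 1 mismatch gave 1.72, and medians over covered bases 0.95 over the bins. Chosen after seeing the data, the box value was 0.39 within KI270715v1, 0.45 within KI270716v1 and, reversed, -0.52 without the sequences covered in ERCC6L2-/- cells only, and random sequences alone gave 0.19 over the bins. Both scalings, a pseudocount of 10, windows covered over at least 50% of their length, and leaving out KI270411v1 or the fix patch kept the window counts within 1.5 times, at 380 to 422 and 61 to 70. Scaling cannot change the 380 windows covered in control only, so this stability was largely set in advance. Scaled to totals the count under 0.5 was 380, so none of the 44 windows covered in both stayed under 0.5. With the other scaling it was 386.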
